A study of Homo sapiens with 12 samples.

Results

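Nucleoporins are the proteins of the nuclear pore complex, the channel through which proteins and RNA pass between nucleus and cytoplasm. The Y complex and the inner ring build its scaffold, proteins rich in phenylalanine and glycine repeats fill the central channel, filaments reach into the cytoplasm, a basket reaches into the nucleus, and membrane proteins anchor the whole in the nuclear envelope. Import and export receptors carry cargo through it in a direction set by the small GTPase Ran, and messenger RNA leaves with its own set of factors.

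The 31 nucleoporin genes described here were taken from the deposited tables as the loci whose gene names include the member, with the locus of highest mean level where there were several. Each was found among the 30574 loci listed, 30 under the gene's own symbol and NUP42 under its older symbol NUPL2, and each was among the 12182 loci tested, those that reached 1 FPKM in 2 or more libraries. FPKM scales a gene's fragments by its length and by the library's mapped total, so genes of unlike length stand on 1 scale. By role, 9 of the genes belong to the Y complex, 5 to the inner ring, 3 to the central channel, 4 to the cytoplasmic face, 3 to the nuclear basket and 5 to the membrane anchor, and NUP98 and RAE1 form a group of 2. NUP43 was singled out because earlier results of these data had shown it low, so its differences are given as a description with no test.

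The RNA came from IOSE80, a human ovarian epithelial line that was immortalised from normal cells, and all groups are this 1 line. Cells were kept for 28 days with bisphenol A (BPA) at 0.25 nM (3 libraries), BPA at 2500 nM (3 libraries), E2 (2 libraries) or 0.1% DMSO (3 libraries). BPA, a monomer of plastics, is a weak oestrogen, and E2 commonly stands for estradiol. DMSO is treated here as the vehicle, although the labels name no solvent for the other groups. For E2 no dose is stated in those sources, and its replicate 3 was not analysed here. No label says whether replicates were separate cultures, so a p-value here measures only the spread between these libraries, which may be technical.

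Of 14 genes set down as markers of ovarian surface epithelium, 4 averaged at least 1 FPKM, namely ALDH1A1, KRT18, NR2F2 and KRT8. Averages of 7 others, among them WT1, MSLN and CDH1, were below 0.05 FPKM, so those listed genes are all but absent. Of 9 fibroblast markers 5 averaged at least 1 FPKM, VIM at 688 FPKM, S100A4 at 58.6 FPKM, COL3A1 at 28.7 FPKM, PDGFRA at 5.23 FPKM and THY1 at 1.45 FPKM. The PDGFRA locus also names the coding gene FIP1L1. The fibroblast markers DCN, LUM and COL1A2 averaged below 0.05 FPKM, and COL1A1 averaged 0.42 FPKM. Of the granulosa markers 2 of the 5 that matched a locus averaged at least 1 FPKM, FOXL2 at 6.78 FPKM and INHA at 1.28 FPKM. CYP19A1 and AMHR2 averaged below 0.05 FPKM. Of the 5 endothelial markers only 2 matched a locus, and 1 of these, EGFL7, averaged at least 1 FPKM. The leukocyte marker PTPRC never passed 0.01 FPKM, and CD68, the other one matched, lies in a locus that also names EIF4A1 and SENP3, so its level is not that of CD68 alone. The summed epithelial markers spanned 134.23 to 143.87 FPKM with BPA 0.25 nM, 122.32 to 127.86 FPKM with BPA 2500 nM, 141.73 to 143.66 FPKM with E2 and 134.93 to 151.24 FPKM with DMSO. Most of this sum is ALDH1A1, which averaged 97.6 FPKM with BPA 2500 nM and 116.3 FPKM with DMSO. KRT18 averaged 21.75 and 23.4 FPKM in these 2 groups, and NR2F2 3.17 and 3.27 FPKM. The sum therefore mostly follows 1 gene and not the markers as a set. The part of these markers in the nucleoporin results was not tested. In bulk RNA, fewer cells of a type and less RNA per cell cannot be told apart.

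Of the libraries, E2 replicate 2 stood apart. Its median correlation with the others, across loci, was 0.976, against 0.979 to 0.983 for the other 10, and it was the highest library for 20.3% of all loci tested and for 15 of the 31 nucleoporins. Nucleoporin changes with E2 that move by much without it are given both ways below. The mitochondrial share of FPKM was 12.6 to 12.7% with BPA 0.25 nM, 12.9 to 13.6% with BPA 2500 nM, 14% and 12.3% in E2 replicates 1 and 2, and 13.6 to 14.3% with DMSO.

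All 31 nucleoporins were expressed in every library. Their mean levels over the 11 libraries had a median of 14.2 FPKM, against 5.33 FPKM for all loci tested. RANBP2 (48.8 FPKM), a large protein of the cytoplasmic filaments that also acts as a SUMO ligase, and NUP205 (48.1 FPKM), a scaffold protein of the inner ring, stood highest. They were followed by NUP210 (38.5 FPKM), a membrane protein of the pore, and TPR (32.7 FPKM), the main filament protein of the basket. The lowest were NUP93 (7.47 FPKM), NUP42 (6.92 FPKM) and NUP214 (5.68 FPKM). RANBP2 and NUP205 lay closer together than their spread over libraries, 42.22 to 57.39 FPKM for RANBP2 and 44.53 to 51.85 FPKM for NUP205.

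Proteins of 1 subcomplex did not have like transcript levels. In the inner ring, NUP205 was at 48.1 FPKM and NUP93, which links the ring to the channel, at 7.47 FPKM. On the cytoplasmic face, RANBP2 at 48.8 FPKM stood beside NUP214, a docking site for export complexes, at 5.68 FPKM. The Y complex was more even, with SEH1L lowest at 10.2 FPKM and NUP37 highest at 18.5 FPKM. In the channel NUP58 had 7.51 FPKM and NUP54 17.5 FPKM, in the basket NUP50 had 17.2 FPKM and TPR 32.7 FPKM, and in the membrane group POM121 had 8.16 FPKM and NUP210 38.5 FPKM. RAE1 and NUP98, partners in RNA export, were at 12.0 and 14.3 FPKM. The coefficient of variation over the 11 libraries was lowest for NUP210 (3.41%) and highest for NUP43 (18.7%), followed by NUP37 (16.4%) and AHCTF1 (14.7%).

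**Figure D1:**
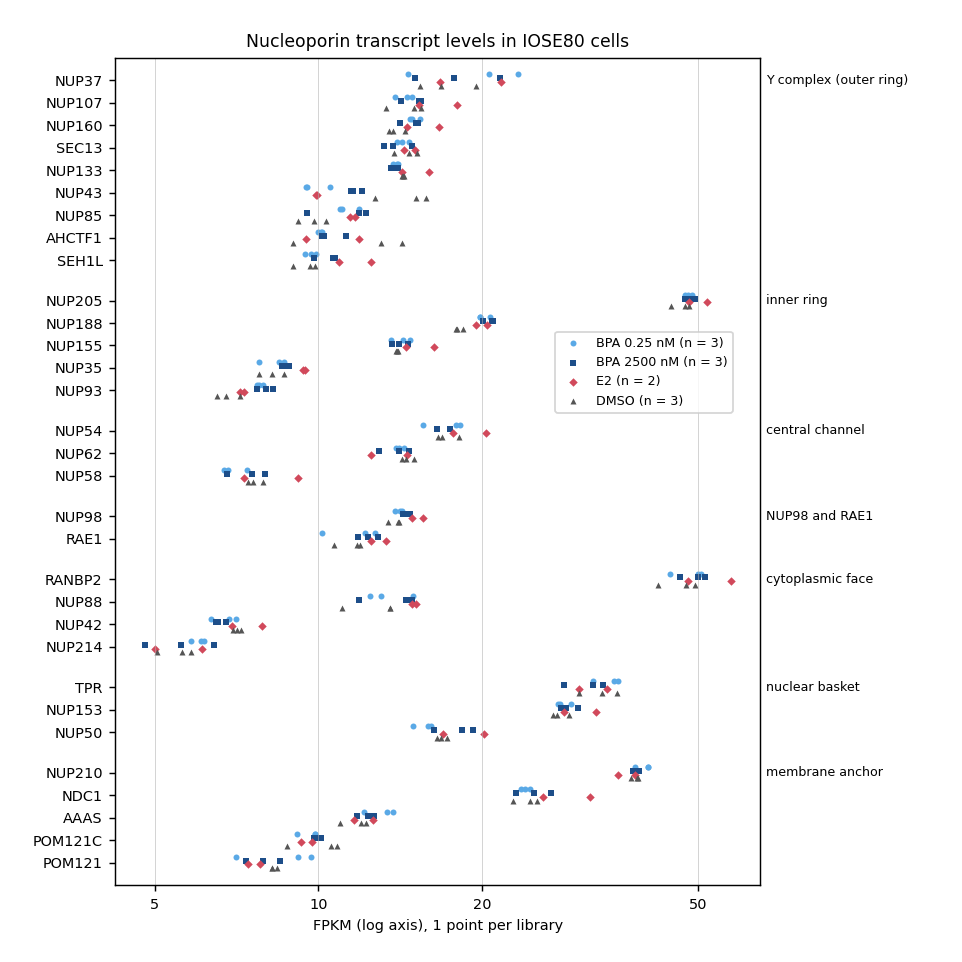
FPKM of the 31 nucleoporins in each library on a log axis, 1 point per library, grouped by subcomplex; colours and shapes give the group. Levels span 4.79 FPKM (NUP214) to 57.39 FPKM (RANBP2), the groups lie on top of each other for most genes, and NUP43 has all 3 DMSO libraries to the right of the other 8.

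NUP43 is a WD-repeat protein at the arm of the Y complex. Its locus spans chr6:149724315-149746560 on the minus strand (GRCh38) and names no other gene. It stood at 9.47, 9.51 and 10.49 FPKM with BPA 0.25 nM, at 12.04, 11.47 and 11.60 FPKM with BPA 2500 nM, at 9.90 and 9.94 FPKM with E2, and at 15.15, 15.81 and 12.73 FPKM with DMSO. Every library with BPA or E2 lay below every DMSO library, and the BPA 0.25 nM and E2 libraries lay below those with BPA 2500 nM. DMSO replicate 3 was the closest of the controls to the exposed cells.

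As ratios of mean FPKM to DMSO, NUP43 was at 0.675 for the low BPA dose, at 0.804 for the high dose and at 0.681 for E2. On the log2(FPKM + 1) scale, on which all changes below are given with their standard error (SE), it differed from DMSO by -0.52 ± 0.07, -0.29 ± 0.07 and -0.51 ± 0.08 in the same order. BPA 2500 nM was 0.23 ± 0.07 above BPA 0.25 nM, a ratio of 1.19. In each comparison with DMSO it had the lowest change of the 31 nucleoporins. Across all loci tested, 90 (0.739%) had a change at or below that of NUP43 for the low dose, 734 (6.03%) for the high dose and 179 (1.47%) for E2. NUP43 was singled out for its low level in these same data, so its place and these shares only describe it and cannot serve as a test. These comparisons share the DMSO libraries. Without DMSO replicate 3 the change with E2 was as low as -0.59, and over the 11 fits that each left out 1 library it ran up to -0.45.

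**Figure D2:**
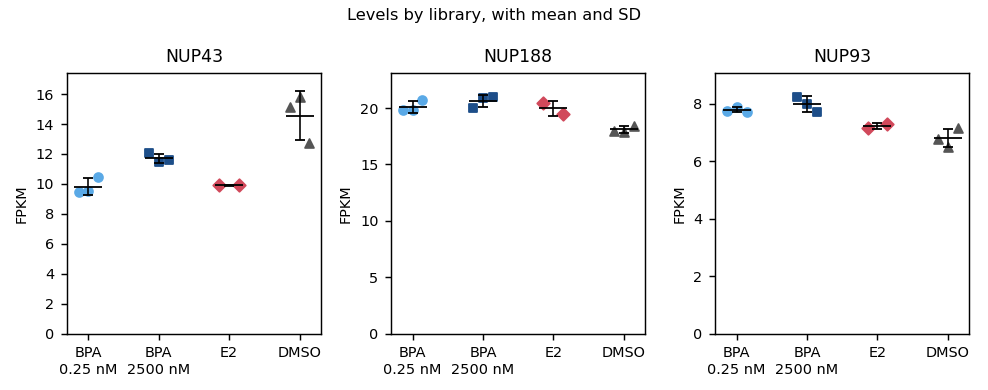
FPKM of NUP43, NUP188 and NUP93 in each library, with the mean (bar) and SD (whiskers) of each group; n is 3 for BPA 0.25 nM, BPA 2500 nM and DMSO, and 2 for E2. The axes start at 0. NUP43 is lowest with BPA 0.25 nM and E2, at 9.47 to 10.49 FPKM, while NUP188 and NUP93 lie above DMSO at both BPA doses.

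Among the other 30 nucleoporins no locus passed an adjusted p of 0.05 in limma in any comparison. With BPA 0.25 nM, 0 of 30 passed, where 0.0164% of all loci tested were called, and 3 had an unadjusted p under 0.05 (9.11% of all loci). With BPA 2500 nM it was 0 of 30 against 1.3% of all loci, and 2 had an unadjusted p under 0.05 (17.2% of all loci). With E2 it was 0 of 30 against 0.419% of all loci, and 7 had an unadjusted p under 0.05 (15.4% of all loci). Without E2 replicate 2 that count was 3 of 30 (13.1% of all loci). Between BPA 2500 nM and BPA 0.25 nM it was 0 of 30 against 0.0657% of all loci, with 1 unadjusted p under 0.05 (7.81% of all loci).

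As a stricter description, a member other than NUP43 was counted where its unadjusted p was under 0.05 and the libraries of both groups did not overlap. With BPA 0.25 nM that held for 2 members higher and 0 lower, where 4.35% of all loci were higher and 3.3% lower by the same count. With BPA 2500 nM it held for 2 members higher (5.32% of all loci) and 0 lower (10.2% of all loci). With E2 it held for 7 members higher (5.74% of all loci) and 0 lower (8.74% of all loci). In BPA 2500 nM against BPA 0.25 nM it held for NUP50, which was higher (1.76% of all loci), and for 0 lower (4.79% of all loci).

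With E2, NUP43 was the lowest of 9 Y complex genes, of which 7 had positive changes, or 6 without E2 replicate 2. At the BPA doses 4 and 5 of the 9 were positive. NUP160, a scaffold protein of the complex, stood at 14.55 and 16.68 FPKM with E2, against 13.48, 14.44 and 13.72 FPKM with DMSO. The E2 libraries lay above all DMSO libraries, E2 replicate 1 only just. Its log2 change was 0.16 ± 0.06 (adjusted p = 0.290), and 0.06 without E2 replicate 2 (adjusted p = 0.723).

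SEH1L, a WD-repeat protein that the Y complex shares with a nutrient-sensing complex at the lysosome, was at 10.93 and 12.51 FPKM with E2, against 9.63, 9.87 and 8.99 FPKM with DMSO. Both E2 libraries were above all DMSO libraries. Its change was 0.28 ± 0.07 (adjusted p = 0.0967). Without E2 replicate 2 it was 0.19 (adjusted p = 0.313), and without E2 replicate 1 it was 0.37 and passed the threshold (adjusted p = 0.0495). With BPA 0.25 nM it averaged 9.67 ± 0.22 FPKM and with BPA 2500 nM 10.4 ± 0.50 FPKM, against 9.50 ± 0.45 FPKM with DMSO (SD, n = 3 each).

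NUP85, another scaffold protein of the Y complex, stood at 11.03, 10.98 and 11.88 FPKM with BPA 0.25 nM, at 11.87, 12.21 and 9.52 FPKM with BPA 2500 nM, at 11.42 and 11.69 FPKM with E2, and at 9.18, 9.83 and 10.33 FPKM with DMSO. BPA 0.25 nM and E2 did not overlap with DMSO, while BPA 2500 nM replicate 3 fell inside the DMSO range. The changes were 0.19 ± 0.08 with BPA 0.25 nM (adjusted p = 0.544), 0.17 ± 0.08 with BPA 2500 nM (adjusted p = 0.335) and 0.22 ± 0.09 with E2 (adjusted p = 0.308). Without E2 replicate 2 the E2 change was 0.21 (adjusted p = 0.543).

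The remaining Y complex genes showed no such separation with a p under 0.05. NUP107, NUP133 and SEC13 had changes between -0.06 and 0.04 at both BPA doses and of 0.18 ± 0.08, 0.07 ± 0.05 and 0.02 ± 0.06 with E2. The E2 changes of NUP107, NUP133 and SEC13 were 0.07, -0.0035 and 0.05 without E2 replicate 2. NUP133 was lower at both BPA doses without overlap, 13.73 to 14.04 FPKM at 0.25 nM and 13.62 to 13.99 FPKM at 2500 nM, against 14.27 to 14.36 FPKM with DMSO, yet by only -0.04 ± 0.05 and -0.05 ± 0.05. NUP37, a small WD-repeat protein, varied within groups as much as between them, at 14.59 to 23.3 FPKM with BPA 0.25 nM and 15.35 to 19.51 FPKM with DMSO. Its E2 replicates 1 and 2 were at 21.65 and 16.74 FPKM, and the E2 change of 0.14 ± 0.21 rose to 0.32 without E2 replicate 2. AHCTF1, also called ELYS, which brings the Y complex to chromatin at the end of mitosis, was at 8.97 FPKM in DMSO replicate 1 and at 14.27 and 13.03 FPKM in DMSO replicates 2 and 3, so its changes of -0.21 ± 0.14, -0.16 ± 0.14 and -0.15 ± 0.16 (-0.30 without E2 replicate 2) rest on a divided control. Its locus is joined with the pseudogene KIF28P.

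In the inner ring all 5 genes had positive changes in each of the 3 comparisons with DMSO, which share their controls. The sign of NUP155 at both BPA doses, and of NUP35 at 0.25 nM, changed under at least 1 alternative. The 5 genes' summed level was 98.4 ± 1.43 FPKM with BPA 0.25 nM and 99.7 ± 1.62 FPKM with BPA 2500 nM (SD, n = 3 each), 99.56 and 104.45 FPKM with E2, and 93.7 ± 1.30 FPKM with DMSO (SD, n = 3). The highest DMSO library had 94.64 FPKM and the lowest of the others 97.16 FPKM. A sum has no share of all loci to set beside it, and the genes were not alike in it. With BPA 0.25 nM and DMSO, NUP205 averaged 48.0 and 46.6 FPKM and NUP188 20.1 and 18.1 FPKM. NUP93 averaged 7.79 and 6.81 FPKM in these groups. NUP155 averaged 14.20 and 13.95 FPKM there, and NUP35 8.29 and 8.21 FPKM.

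NUP188, a large scaffold protein of this ring, stood at 19.84, 19.81 and 20.73 FPKM with BPA 0.25 nM, at 20.05, 20.89 and 20.99 FPKM with BPA 2500 nM, at 20.44 and 19.51 FPKM with E2, and at 17.98, 17.92 and 18.45 FPKM with DMSO. Every exposed library was above every DMSO library. The changes were 0.14 ± 0.04 with BPA 0.25 nM (adjusted p = 0.410), 0.18 ± 0.04 with BPA 2500 nM (adjusted p = 0.0687) and 0.13 ± 0.05 with E2 (adjusted p = 0.207, and 0.17 without E2 replicate 2). The locus, chr9:128920966-129003993 on the plus strand (GRCh38), also names the coding gene PHYHD1, so its level is not that of NUP188 alone.

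NUP93 was at 7.76, 7.90 and 7.72 FPKM with BPA 0.25 nM, at 8.24, 8.01 and 7.70 FPKM with BPA 2500 nM, at 7.16 and 7.29 FPKM with E2, and at 6.76, 6.51 and 7.16 FPKM with DMSO. The BPA libraries of both doses were above all DMSO libraries, and E2 replicate 1 equalled the highest of them. NUP93 differed by 0.17 ± 0.05 with BPA 0.25 nM (adjusted p = 0.397), by 0.20 ± 0.05 with BPA 2500 nM (adjusted p = 0.0704) and by 0.08 ± 0.05 with E2 (adjusted p = 0.548). Its locus, chr16:56730118-56844769 on the plus strand (GRCh38), names no other gene. When libraries were rescaled by the median of ratios, the BPA 2500 nM changes of NUP188 and NUP93 became 0.23 (adjusted p = 0.0494) and 0.25 (adjusted p = 0.0470) and passed the threshold. Neither gene separated the doses, with 0.03 ± 0.04 for NUP188 (adjusted p = 0.875) and 0.03 ± 0.05 for NUP93 (adjusted p = 0.903) in BPA 2500 nM against BPA 0.25 nM.

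NUP35, which bends membrane and binds the rest of the ring, was at 9.35 and 9.45 FPKM with E2, against 8.66, 7.76 and 8.20 FPKM with DMSO. Both E2 libraries were higher than all DMSO libraries, with a change of 0.18 ± 0.06 (adjusted p = 0.196, and 0.17 without E2 replicate 2). The scaffold genes NUP205 and NUP155 had changes of 0.10 ± 0.05 and 0.13 ± 0.06 with E2, and of 0.01 to 0.05 at both BPA doses. With E2 replicate 2 left out, the E2 changes of NUP205 and NUP155 were both 0.05, and that of NUP93 was 0.06.

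The promoters of NUP188 and NUP93, the pair above DMSO at both BPA doses, and of NUP160, a Y complex gene whose promoter holds an ETS match, are shown as 250 bases before and 50 bases after the start site (RefSeq, GRCh38.p14), 5′ to 3′ on the strand of the gene. Capitals mark matches, on either strand, to GGGCGG (GC box), CCAAT, CCGGAAGT (ETS) and AAGATGGC (YY1). In NUP160 the GC boxes nearest the start share 2 bases and in NUP93 the first pair shares 1 base, so each prints as 1 run of capitals. NUP188 is chr9:128947449-128947748 on the plus strand, NUP93 is chr16:56729879-56730178 on the plus strand and NUP160 is chr11:47848301-47848600 on the minus strand.
NUP188: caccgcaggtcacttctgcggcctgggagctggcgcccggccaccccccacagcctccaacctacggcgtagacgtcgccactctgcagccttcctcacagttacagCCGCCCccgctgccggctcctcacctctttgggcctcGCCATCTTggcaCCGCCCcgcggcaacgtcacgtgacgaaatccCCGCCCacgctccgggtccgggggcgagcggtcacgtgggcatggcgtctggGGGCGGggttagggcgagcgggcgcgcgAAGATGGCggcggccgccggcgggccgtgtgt
NUP93: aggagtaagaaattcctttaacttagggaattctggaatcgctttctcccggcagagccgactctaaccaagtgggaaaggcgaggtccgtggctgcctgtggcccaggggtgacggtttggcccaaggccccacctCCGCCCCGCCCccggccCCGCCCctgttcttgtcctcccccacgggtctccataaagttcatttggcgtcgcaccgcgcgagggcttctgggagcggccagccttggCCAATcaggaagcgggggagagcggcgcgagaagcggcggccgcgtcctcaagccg
NUP160: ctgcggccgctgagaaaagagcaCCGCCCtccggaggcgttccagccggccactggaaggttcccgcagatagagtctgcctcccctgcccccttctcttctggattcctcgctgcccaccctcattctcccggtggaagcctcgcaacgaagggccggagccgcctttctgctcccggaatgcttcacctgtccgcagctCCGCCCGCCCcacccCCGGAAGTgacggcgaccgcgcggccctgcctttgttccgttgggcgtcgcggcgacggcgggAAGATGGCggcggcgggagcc
NUP188 holds 4 GC boxes and 2 YY1 matches, NUP93 3 GC boxes and 1 CCAAT, and NUP160 3 GC boxes, 1 ETS and 1 YY1. In NUP188 and NUP160 a YY1 match falls in the 50 bases after the start.

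Promoters of 29 of the 31 nucleoporins were in the table of 27305 promoters. Their GC content had a median of 63.33% (52.33 to 81.33%), against 58.33% for all promoters. None of the 29 held the full palindromic oestrogen response element, which 0.07% of all promoters hold, or TATAAA, which 11.95% hold. ETS letters stood in 7 of the 29 (24.14%), against 4.44% of all promoters. YY1 letters and the palindromic NRF1 motif stood in 4 each (13.79%), against 3.03% and 6.28% of all promoters. GC boxes stood in 12 (41.38%) and CCAAT in 11 (37.93%), near the 44.59% and 35.7% of all promoters. These are counts of letters in a window, with no test and no statement on binding, and POM121 and POM121C, which both hold ETS letters, are near-identical copies.

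The start of NUP188 lies 80 bases from that of DOLK, a dolichol kinase gene of the opposite strand, in GENCODE 29. DOLK stood at 14.64, 16.79 and 17.82 FPKM with BPA 0.25 nM, at 17.68, 17.63 and 16.06 FPKM with BPA 2500 nM, at 16.67 and 14.32 FPKM with E2, and at 14.15, 13.87 and 15.90 FPKM with DMSO. Only the BPA 2500 nM libraries lay wholly above DMSO. Its changes were 0.15 ± 0.09, 0.21 ± 0.09 and 0.08 ± 0.10 in that order (adjusted p = 0.634, 0.251 and 0.769). NUP37 and TPR have such neighbours too, PARPBP at 61 bases and ODR4 at 145 bases, and ODR4 and PARPBP did not pass the threshold either.

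The central channel genes did not separate from DMSO with a p under 0.05. NUP62, which lies at the core of the channel and whose locus also names IL4I1 and SIGLEC11, had changes of -0.04 ± 0.06, -0.07 ± 0.06 and -0.11 ± 0.07 with BPA 0.25 nM, BPA 2500 nM and E2. Its partners NUP54 and NUP58 had 0.00 ± 0.07 and -0.12 ± 0.08 with BPA 0.25 nM, -0.005 ± 0.07 and -0.04 ± 0.08 with BPA 2500 nM, and 0.14 ± 0.08 and 0.09 ± 0.09 with E2. Without E2 replicate 2 the E2 changes were -0.0047 for NUP62, 0.04 for NUP54 and -0.06 for NUP58, so the sign of NUP58 rests on that library.

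NUP98, a mobile repeat protein that binds RNA export factors, was at 14.89 and 15.60 FPKM with E2, against 13.45, 14.08 and 14.03 FPKM with DMSO. The E2 libraries did not overlap with DMSO, at 0.13 ± 0.04 (adjusted p = 0.213, and 0.10 without E2 replicate 2). Its locus also names the receptor gene CHRNA10. At the 2 BPA doses the change of NUP98 was 0.02 ± 0.04 and 0.06 ± 0.04. RAE1, which binds NUP98, had 0.02 ± 0.08, 0.10 ± 0.08 and 0.16 ± 0.09 with BPA 0.25 nM, BPA 2500 nM and E2 (0.20 without E2 replicate 2).

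On the cytoplasmic face the changes with E2 lay between 0.01 ± 0.11 for NUP214 and 0.23 ± 0.12 for NUP88, which holds NUP214 in place. All 4 were positive, but without E2 replicate 2 NUP42 was at -0.03, NUP214 at 0.13 and NUP88 at 0.24. At each BPA dose 3 of 4 were positive. NUP42, which helps the helicase that strips export factors from mRNA, was the negative one at both doses (-0.06 ± 0.06 and -0.09 ± 0.06). RANBP2 averaged 48.3 ± 3.43 FPKM with BPA 0.25 nM, 49.2 ± 2.69 FPKM with BPA 2500 nM and 46.4 ± 3.70 FPKM with DMSO (SD, n = 3 each), and stood at 47.82 and 57.39 FPKM with E2. The E2 libraries lay far apart, and the change was 0.18 ± 0.10 (adjusted p = 0.433), or 0.05 without E2 replicate 2. A second locus named RANBP2, on the minus strand at 4.42 to 8.48 FPKM, was not added, and RANBP2 has close relatives that could share its fragments.

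In the nuclear basket, NUP50, a cofactor of import, differed between the doses. It was at 16.30, 19.28 and 18.41 FPKM with BPA 2500 nM, against 15.93, 14.93 and 16.09 FPKM with BPA 0.25 nM. The libraries did not overlap, and the change of 0.19 ± 0.08 had an adjusted p of 0.599. With DMSO it was at 16.84, 16.53 and 17.26 FPKM, with a mean between those of the doses. NUP153, which docks import complexes, had 0.02 ± 0.06, 0.05 ± 0.06 and 0.12 ± 0.06, and TPR 0.05 ± 0.08, -0.08 ± 0.08 and -0.04 ± 0.09, with BPA 0.25 nM, BPA 2500 nM and E2. For E2 without its replicate 2, the changes of NUP153 and TPR were 0.03 and -0.12, and that of NUP50 was 0.01 in place of 0.12 ± 0.08.

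Of the membrane anchors, NDC1, a protein with several membrane passes that is needed for pore insertion, was at 25.87 and 31.61 FPKM with E2, against 22.78, 25.24 and 24.47 FPKM with DMSO. Both E2 libraries were above DMSO, but E2 replicate 2 by far the more. The change of 0.24 ± 0.09 (adjusted p = 0.242) was 0.10 without that library (adjusted p = 0.684). AAAS, named for triple A syndrome, had 0.14 ± 0.06 with BPA 0.25 nM with overlapping libraries (adjusted p = 0.543). Its E2 change was 0.04 ± 0.07, and 0.10 without E2 replicate 2. NUP210, POM121 and POM121C had changes between -0.11 and 0.05 in all comparisons with DMSO, and fragments of POM121 and POM121C may be split between these copies.

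**Figure D3:**
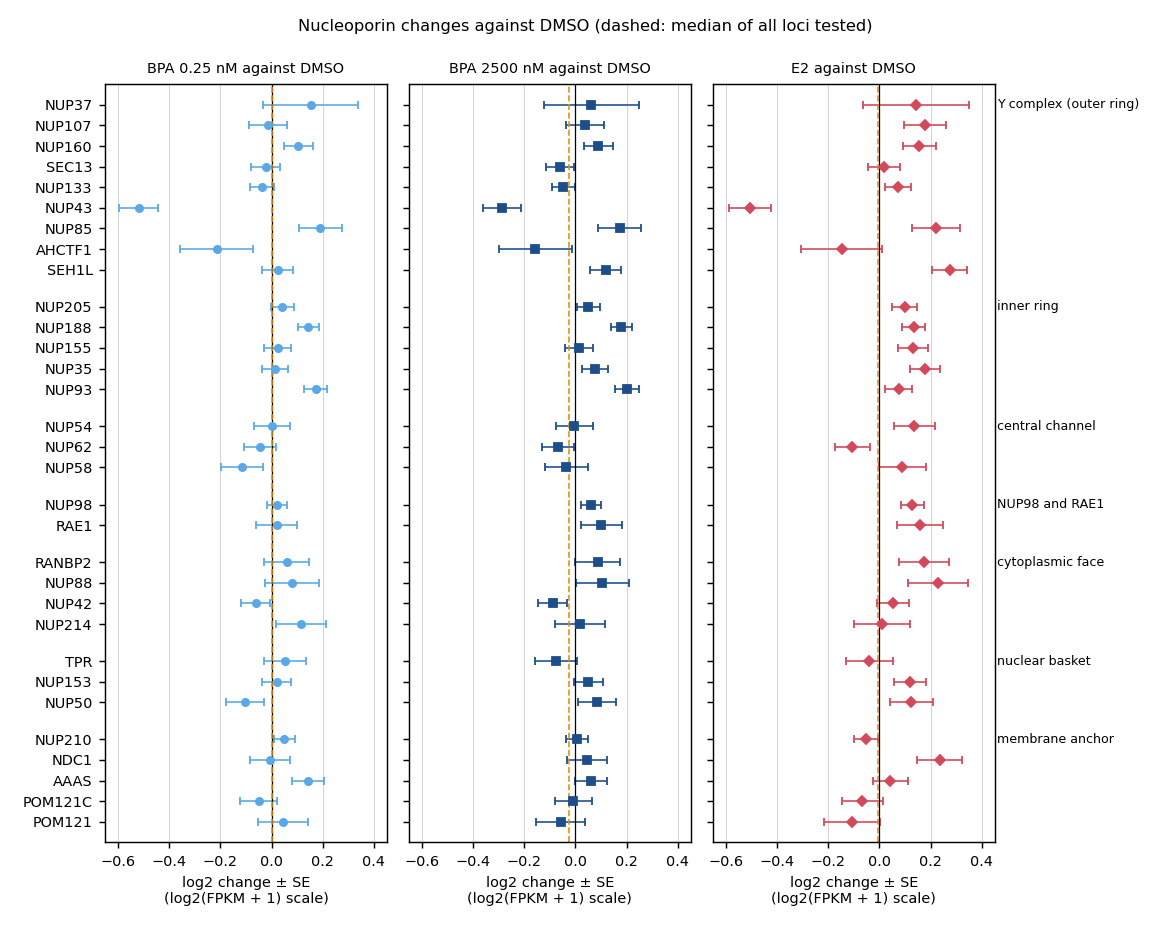
Change of each nucleoporin against DMSO on the log2(FPKM + 1) scale with its SE, for BPA 0.25 nM (left), BPA 2500 nM (middle) and E2 (right); the solid line is 0 and the dashed line the median of all loci tested. NUP43 is the lowest point of each panel, at -0.52, -0.29 and -0.51, and with E2 most other points lie to the right of 0.

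Over the 31 genes the median change was 0.02 with BPA 0.25 nM, against 0.00 for all loci tested, and 20 of 31 were positive, against 50.28% of all loci. With BPA 2500 nM the median was 0.04, against -0.03 for all loci, with 20 of 31 positive against 42.76%. With E2 the median was 0.12, against -0.01 for all loci, with 24 of 31 positive against 48.1%. That count was 21 of 31 without E2 replicate 2, with a median of 0.05 against -0.02 for all loci. For BPA 2500 nM against BPA 0.25 nM it was 0.02, against -0.03, with 17 of 31 positive against 37.41%. The 3 comparisons with DMSO share their controls, so these counts are not independent of each other. All 31 genes averaged above 5 FPKM, while the loci tested include lower ones. Among loci that averaged at least 5 FPKM, the median for the low BPA dose was 0.017, near the members' 0.022. For the high dose it was -0.002, for E2 0.015, and for the high dose against the low one -0.023. Shares of positive changes were not taken at that level.

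The E2 shift moved with 1 library. Summed over the 31 genes, the level was 519.56 to 533.98 FPKM with BPA 0.25 nM, 513.52 to 541.85 FPKM with BPA 2500 nM, 535.6 and 569.66 FPKM in E2 replicates 1 and 2, and 505.59 to 533.36 FPKM with DMSO. E2 replicate 2 exceeded E2 replicate 1 in 20 of the 31 genes, by a median of 0.06 on the log2 scale, against 0.01 and 52.438% of loci over all tested. BPA 2500 nM replicate 3 less replicate 2 had a member median of -0.06 (-0.04 for all loci), with 9 of 31 positive. DMSO replicate 2 less replicate 1 had 0.04 (-0.003 for all loci), with 21 of 31 positive. A member median of this size was thus not particular to the E2 pair. NUP43 was nearly equal in both E2 libraries and its change was -0.51 without E2 replicate 2.

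**Figure D4:**
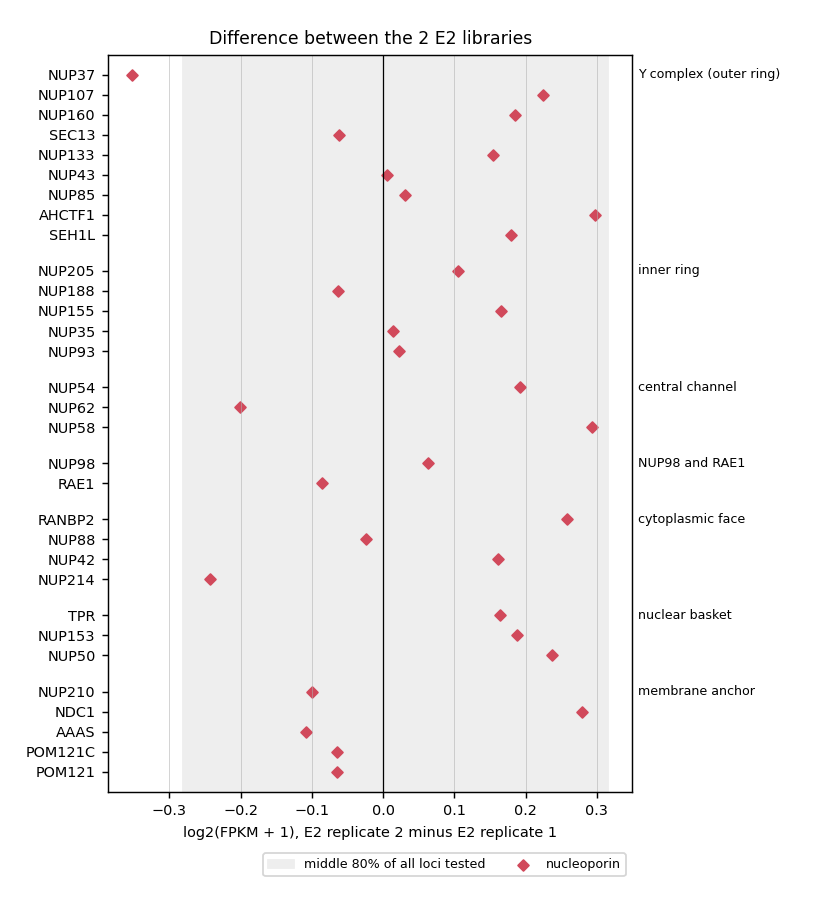
Difference of log2(FPKM + 1) between E2 replicates 2 and 1 for each nucleoporin (diamonds), with the span from the 10th to the 90th percentile of all loci tested in grey. 20 of the 31 points lie to the right of 0, none lies above the grey span, NUP37 lies below it, and NUP43 lies at 0.01.

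Of the factors that work with the pore, 49 genes were listed as import receptors, export receptors, parts of the Ran cycle or mRNA export factors, and 47 distinct loci of them were tested. None was called by limma in any comparison. Among 17 import receptor loci, 3 had an unadjusted p under 0.05 for the low BPA dose, 1 for the high dose and 6 for E2, where 9.11%, 17.2% and 15.4% of all loci did. Without E2 replicate 2 the count for E2 was 2 of 17, where 13.1% of all loci did. KPNA2, an adaptor that binds nuclear localisation signals, averaged 131 ± 2.82 FPKM with BPA 0.25 nM, 134 ± 5.03 FPKM with BPA 2500 nM, 137 ± 4.04 FPKM with E2 (n = 2) and 118 ± 5.01 FPKM with DMSO (SD, n = 3 for the others). Its libraries did not overlap with DMSO in any of the 3 groups, with changes of 0.15 ± 0.05, 0.18 ± 0.05 and 0.21 ± 0.05 (adjusted p = 0.437, 0.0817 and 0.0924). KPNB1, the importin that carries KPNA2 through the channel, averaged 70.7 ± 1.60 FPKM with BPA 0.25 nM and 73.5 ± 1.99 FPKM with E2 (n = 2), against 61.0 ± 7.11 FPKM with DMSO, with adjusted p of 0.450 and 0.156. With BPA 2500 nM KPNB1 averaged 64.9 ± 2.22 FPKM, and those libraries lay inside the DMSO range of 54.74 to 68.73 FPKM.

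The 7 export receptor loci had 0, 1 and 3 such p (1 without E2 replicate 2), to be read beside the same 9.11%, 17.2% and 15.4% of all loci. XPO5, the exporter of microRNA precursors, was at 13.6 ± 0.33 FPKM with BPA 2500 nM and 13.7 ± 0.51 FPKM with E2 (n = 2), against 12.3 ± 0.38 FPKM with DMSO (adjusted p = 0.189 and 0.217). In the Ran cycle, 0, 2 and 1 of 6 loci had such a p (2 without E2 replicate 2), beside the same shares. RCC1, the exchange factor that loads Ran with GTP, averaged 22.1 ± 2.49 FPKM with E2 (n = 2), against 16.8 ± 0.82 FPKM with DMSO, a change of 0.37 ± 0.08 (adjusted p = 0.0731, and 0.48 without E2 replicate 2), at a locus that also names SNHG3 and SNORA73A. With BPA 0.25 nM RCC1 averaged 16.4 ± 0.85 FPKM, and with BPA 2500 nM 19.1 ± 1.18 FPKM. Of 17 mRNA export loci, 3, 5 and 2 had such a p (1 without E2 replicate 2), again beside 9.11%, 17.2% and 15.4% of all loci. THOC6, of the THO complex, averaged 13.7 ± 0.67 FPKM with BPA 2500 nM, against 11.6 ± 0.41 FPKM with DMSO (adjusted p = 0.0967), and the helicase gene DDX39A 20.3 ± 2.40 FPKM, against 15.9 ± 1.65 FPKM (adjusted p = 0.129). With BPA 0.25 nM THOC6 averaged 13.5 ± 0.80 FPKM, and with E2 (n = 2) 11.7 ± 0.40 FPKM, near DMSO. DDX39A averaged 18.5 ± 1.58 FPKM with BPA 0.25 nM and 20.3 ± 0.34 FPKM with E2 (n = 2, adjusted p = 0.182 in limma), so its difference was not particular to the high dose.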

How the data were processed

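RNA of IOSE80 cells was measured in 11 libraries (3 with BPA 0.25 nM, 3 with BPA 2500 nM, 2 with E2 and 3 with DMSO). Total RNA was extracted with Trizol and sequenced on an Illumina instrument, per the labels' protocols. The authors deposited 1 FPKM value per locus and library. Per the submitters' processing notes the tools were HISAT, UMI-tools, StringTie and edgeR, with no version or order. They give the build as hg19, but of 14142 Ensembl loci shared with GENCODE 29 (GRCh38), 74.86% start and end at the same bases there, and coordinates are given on GRCh38. No source used here says whether libraries kept strand, which leaves antisense loci uncertain.

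Depth is unknown: of 31605 ratios between low values, 7.48% were within 0.05 of a whole number, where 10% would be with no steps of single reads. FPKM totals lay between 206719 and 213663 per library. Values were analysed as log2(FPKM + 1), which understates the change of low genes. 1 mean per group was fitted to the 12182 loci at 1 FPKM or more in 2 or more libraries with limma 3.58.1 (R 4.3.3, statmod 1.5.0; trend and robust settings), with two-sided tests and Benjamini-Hochberg adjustment over all loci of a comparison. A locus was called at an adjusted p under 0.05. The fit was tested on simulated data. Plots were drawn with matplotlib 3.10.9 in Python 3.11.15. Promoters came from RefSeq.

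The members and all lists were chosen with earlier results of these data known, so no test was made over a list, and NUP43 is left out of every count by p. Named genes are NUP43, members with an adjusted p under 0.05 or with an unadjusted p under 0.05 against DMSO and no overlap, the highest and lowest member by level of each subcomplex, and, for the other lists, genes from among the 2 smallest p of a comparison. AAAS, AHCTF1, NUP37, NUP50, NUP133 and the remaining members are named with changes or ranges to account for every member. Of the 31 loci, 24 name 1 gene and 3 also name another coding gene.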

Additional observations from a re-analysis of the deposited data

How the results depend on the processing

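The alternatives run were another pseudocount, filter, scaling, sample set or variance setting, a replicate block, members summed over loci, and each library left out. Under all of them the changes of NUP43 in 4 comparisons, of NUP188 against DMSO in 3, of NUP93 at both BPA doses, and of NUP160, NUP85, SEH1L, NUP35, NUP98 and NDC1 with E2 kept their sign. In these comparisons the libraries of the 2 groups did not overlap, which is why these genes other than NUP43 were named. Leaving out 1 library could therefore not turn these signs, and that they held adds no support. Over all 31 members, the sign changed under at least 1 alternative for 13 with BPA 0.25 nM, 9 with BPA 2500 nM, 9 with E2 and 14 between the doses. With E2, NUP42, NUP58 and NUP133 were among them. Counts of called members leave NUP43 out. Without E2 replicate 1 the 1 member called with E2 was SEH1L. Rescaling called 2 members (NUP188 and NUP93) with BPA 2500 nM, and moved the members' median change to 0.0916 there and to 0.0628 in BPA 2500 nM against BPA 0.25 nM. Over the fits that left out 1 library, members called were 0 to 1 with E2 and 0 in the other comparisons. Their median change ran from 0.0092 to 0.0353 (BPA 0.25 nM), 0.0138 to 0.0647 (BPA 2500 nM), 0.0476 without E2 replicate 2 to 0.1509 (E2) and -0.0047 to 0.0245 (between doses).

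Loci called over the whole table with BPA 0.25 nM, 2 in all, became 0 at a mean FPKM of at least 5, 9 with only the compared groups, 1 with the replicate block and 1 with no trend or robust setting. With BPA 2500 nM, 158 (49 higher, 109 lower) became 39 with no filter, 102 at a mean of at least 5, 13 with only the compared groups and 38 with the block. Without the E2 group, an alternative chosen after seeing the data, they became 251. With E2, 51 (20 higher, 31 lower) became 33 with no filter, 2 with only the compared groups and 5 with the block. Between the doses, 8 became 2 with rescaling, 3 each with only the compared groups, the block and no trend or robust setting, and 2 without the E2 group. Rescaling turned the split round, to 102 higher and 61 lower with BPA 2500 nM and 28 higher and 20 lower with E2, while the median of all loci moved to 0.01 and 0.02. Leaving out 1 library gave 0 to 9, 32 to 251, 7 to 189 and 2 to 10 calls in the same order. With E2 there were 189 without E2 replicate 1 and 33 without E2 replicate 2. Why calls moved was not tested.

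Of 15 same-numbered pairs of libraries, deviations from the group mean correlated at -0.12 to 0.16, with 1 over 0.1. In 30 other pairs they correlated at -0.16 to 0.17, with 3 over 0.1. The means rest on 2 or 3 libraries, so deviations within a group offset each other. Such correlations cannot decide whether the replicate numbers pair the samples. The limit set by depth is unknown, and loci that join several genes, near-identical copies and 2 or 3 libraries a group limit each value.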
